A study of Mus musculus with 16 samples.

Results

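Differentiation was examined in C2C12 cells that lack Fam134b, by setting 4 samples of Fam134bKO myotubes against 4 samples of Fam134bKO myoblasts. These 8 samples, of 16 in the series, were chosen by their titles, which name genotype and stage. Of 31053 genes listed, the 10117 that reached a normalized count of 10 in 4 or more of the 8 samples were tested. C2C12 is a mouse myoblast line that fuses into myotubes in culture. All cells grew in the same DMEM with fetal bovine serum, and myotubes formed spontaneously once the cells were confluent, so no change of medium separates the stages. The KO cells had received Cas9 and guide RNAs against Fam134b by lentivirus and were then selected with drugs. Isolation of a clone is not described, and the labels give no day of differentiation. The WT cells, 4 samples of myoblasts and 4 of myotubes of the same line in the same medium, serve here only where a change in KO cells is set against the change in WT cells. The labels call the 4 samples of a group biological replicates but do not say whether they were separate cultures, so p-values measure the spread between these samples.

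Myoblasts express the muscle regulatory factor Myod1. Those that stop dividing express Myog, fuse, and build sarcomeres, in which thick filaments of myosin slide along thin filaments of actin, troponin and tropomyosin. Their endoplasmic reticulum (ER) is remodelled at the same time into the sarcoplasmic reticulum, which stores and releases the calcium that triggers contraction. Fam134b is a membrane-bending receptor that delivers pieces of ER to lysosomes, a process called ER-phagy.

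Fam134b mRNA, from a gene at chr15:25843180-25973687 on the plus strand of GRCm38, remained detectable in every KO sample. Its normalized count was 26.2, 24.9, 35.6 and 23.4 in KO myoblasts 1 to 4 and 31.9, 56.9, 50.4 and 28.0 in KO myotubes 1 to 4. The KO means were 13.3% of the WT mean in myoblasts and 18.0% in myotubes, and the stages overlapped in the KO cells (log2 change 0.54, adjusted p = 0.22 by limma, exact two-sided permutation p = 0.114, where 0.0286 is the smallest p possible with 4 against 4 samples). These values count reads on the gene and do not tell edited from intact mRNA. The other members of the family, Fam134a and Fam134c, changed by 0.47 ± 0.225 and −1.02 ± 0.796 on the log2 scale (SE), and limma called neither.

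KO myotubes were the shallowest and most variable group. Samples 1 to 4 had 2757497, 1790524, 2947336 and 1484750 reads on genes, against 2926807 to 3287461 in KO myoblasts, and their pairwise correlations of log2 values ran from 0.879 to 0.950 against 0.953 to 0.984. KO myoblast 2 stood apart from the other 3 by a low share of reads from the mitochondrial genome, 0.364% where the group reached 2.05%, and by the highest counts of mitosis genes. A read was worth 0.830 to 0.875 normalized counts in KO myoblasts and 0.90 to 2.0 in KO myotubes, and 3 reads were taken as the smallest detectable level. Below, a level is a normalized count, the deposited log2 value undone, and a change is the log2 of (normalized count + 1) in KO myotubes minus that in KO myoblasts. It is given with its SE and with an adjusted p from limma with the Benjamini-Hochberg method, and a gene was called at an adjusted p under 0.05.

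In KO cells differentiation changed 2627 of the 10117 genes, or 26.0%. Of these, 1406 rose (13.9%) and 1221 fell (12.1%), and the median change over all genes tested was −0.03. Rises were the steeper. Among called genes, 99 rose and 4 fell by at least 16-fold, while 278 rose and 206 fell by at least 4-fold. The 4 KO myotubes lay wholly above or wholly below the 4 KO myoblasts for 2811 genes (27.8%), of which 2277 were called. A further way to see the asymmetry is by detection. At most 3 reads in every KO myoblast and more in every KO myotube were found for 122 genes, tested or not, and the reverse for 86. Among the genes tested these counts were 83 and 7. The limit of 3 reads was not adjusted for depth, although KO myotubes were the shallowest group. The effect of depth on these counts was not tested. Protein-coding genes made up 9956 of the genes tested and 1393 and 1203 of the genes that rose and fell. In bulk RNA, fewer cells of a type and less of an RNA per cell cannot be told apart.

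**Figure D1:**
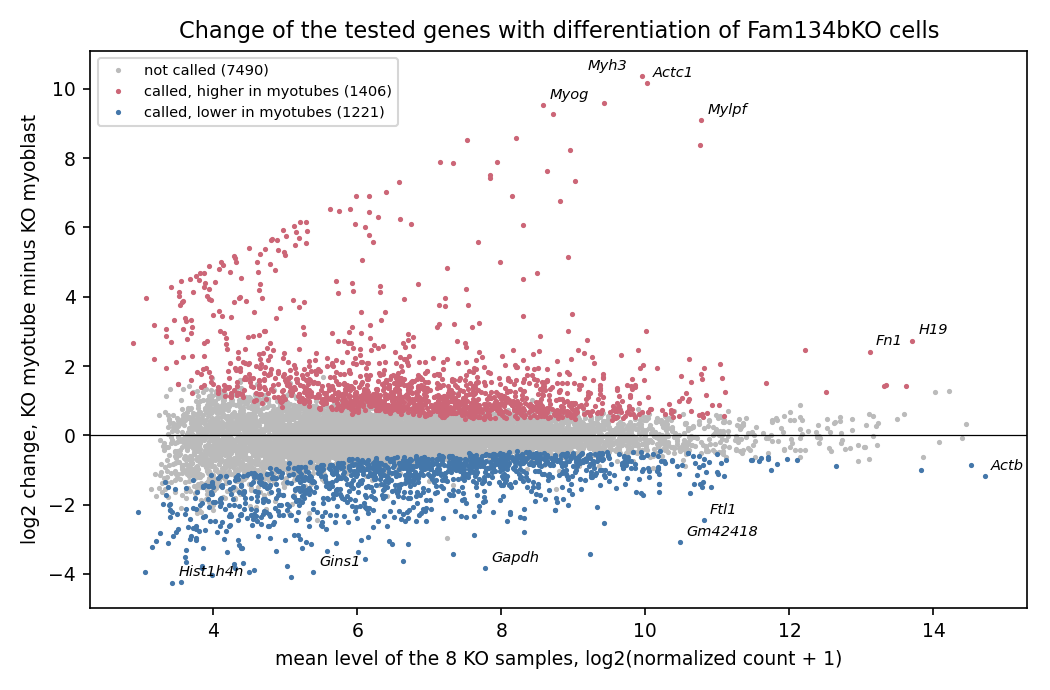
Log2 change of each of the 10117 genes tested (y axis, KO myotubes minus KO myoblasts) against its mean level over the 8 KO samples as log2 of the normalized count plus 1 (x axis), with called genes in red (higher) and blue (lower), the others in grey, and some named. The 1406 genes that rose reach 10.37 (Myh3), while the 1221 that fell reach no lower than −4.25 (Hist1h4n).

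The steepest rises were in muscle genes that KO myoblasts scarcely expressed. Myog, the transcription factor that commits myoblasts to terminal differentiation, had 0 reads in each of the 4 KO myoblasts and reached normalized counts of 806, 487, 940.1 and 829 in KO myotubes, at least 292-fold above the floor of 3 reads. Myod1, the factor that sets muscle identity, stood at 15.7, 5.81, 6.07 and 10.8 in KO myoblasts and at 271, 439, 219.5 and 238 in KO myotubes (change 4.83 ± 0.336, adjusted p = 3.7e-07). The stages were far apart for both. In WT myoblasts the Myod1 mean was 282. Of 22 tested members of a list of myogenic factors, 11 rose and 2 fell, with a median change of 0.73. Smyd1, a muscle methyltransferase, and Mef2c, a partner of the myogenic factors, were among those that rose. Smyd1 had 3 reads in all KO myoblasts together and was 110.1-fold higher in myotubes, with an exact 95% counting interval of 37.2 to 538. Tcf4, an E protein that pairs with such factors, rose from 555 ± 35.7 to 1213 ± 232 (SD, n = 4). Myf5, an early factor of undifferentiated myoblasts, had the opposite sign: KO myotubes 1, 2 and 4 stood at 51.3, 56.9 and 38.0, below the KO myoblasts at 107 to 118, but sample 3 stood at 113 (change −0.92, adjusted p = 0.033). That call was lost when single samples were left out, with KO myotube 3 the exception. Among 20 progenitor factors and repressors of myogenesis, 4 rose and 1 fell, or 20.0% and 5.0%, where 13.9% and 12.1% of all genes tested rose and fell.

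Genes for cell fusion followed. Tmem8c, which encodes the fusogen myomaker, was at 0, 0, 0.868 and 0.834 in KO myoblasts and at 841, 865, 901 and 745 in KO myotubes, a ratio of 2002 with a counting interval of 554 to 16535. Gm7325, the locus of myomixer, its partner in fusion, was at 0.830 to 1.75 in KO myoblasts and at 142, 175, 219.5 and 219.8 in KO myotubes. Both were near the floor in every myoblast sample and far above it in every myotube sample. In all, 16 of 27 fusion and adhesion genes rose and none fell (median 1.10). Among them, Cav3, the caveolin of the muscle membrane, had 0 reads in KO myoblasts and rose at least 16.4-fold. Cd81, a tetraspanin, rose from 906 ± 67.1 to 2122 ± 439.9 (SD, n = 4).

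Every one of the 18 thick-filament genes tested rose, with a median change of 5.91, or 4.74 with genes that had few reads in myoblasts set at the bound their reads allow. Genes below 10 in every KO myoblast were tested only if all 4 KO myotubes reached 10. The filter thus fixed the direction of their change, here and in the other lists. Without the filter 20 of 28 thick-filament genes rose, with a median change of 4.45. Myh3, the embryonic myosin heavy chain, showed the largest fitted change, although the order among genes with few or no reads in KO myoblasts depends on the pseudocount. It stood at 0.875, 0, 0 and 1.67 in KO myoblasts and at 2207, 1949, 2065 and 1718 in KO myotubes (ratio 3185, counting interval 1089 to 15447). Mylpf, the fast regulatory light chain, rose from 3.50, 5.81, 5.21 and 7.51 to 2736, 4439, 3498 and 3355 (change 9.09 ± 0.228, adjusted p = 2.7e-11). Mybph, a myosin-binding protein, had 0 reads in KO myoblasts and rose at least 139.7-fold. Of 19 thin-filament genes, 15 rose and none fell (median 6.44), and without the filter 17 of 24 rose (median 5.19). Actc1, the cardiac α-actin that developing skeletal muscle also expresses, was at 0.875, 0, 0.868 and 1.67 in KO myoblasts and at 1753, 1506, 2539 and 2476 in KO myotubes. Acta1, the adult skeletal α-actin, had the highest mean normalized count of the thin-filament genes in KO myotubes, at 2374, 3107, 4323 and 4036 against 12.2, 15.8, 7.81 and 4.17 before. Tnnc2 and Tnni1, the fast troponin C and the slow troponin I, rose by 9.60 and 8.24. The 4 thin-filament genes that were not called, Tpm1, Tpm2, Tpm3 and Lmod1, have forms or functions outside striated muscle. Tpm2, for instance, stood at 3102 ± 321 in KO myoblasts and 2801 ± 467 in KO myotubes (SD, n = 4).

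**Figure D2:**
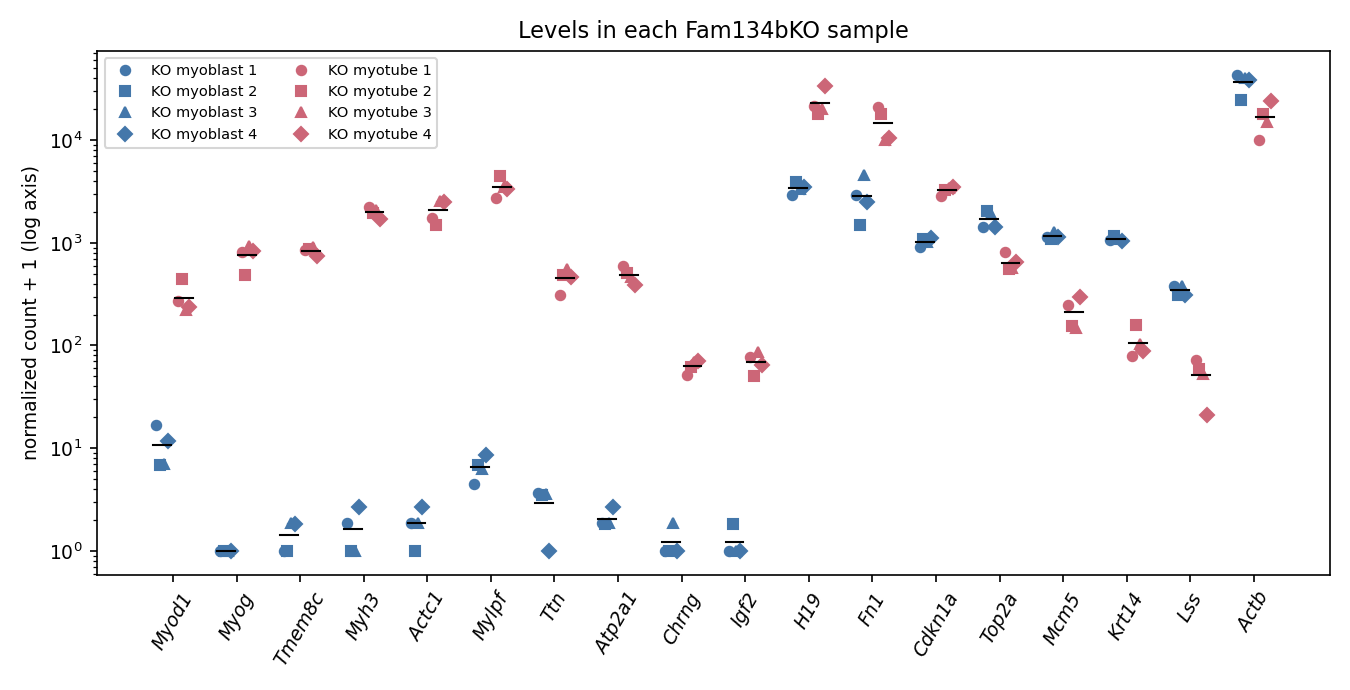
Normalized count plus 1 (y axis, logarithmic) of 18 genes (x axis) in the 4 KO myoblasts (blue) and the 4 KO myotubes (red), with 1 marker shape for each replicate number and the group mean as a line. The muscle genes from Myog to Chrng, and Igf2, lie at or near 0 counts in every KO myoblast and far above it in every KO myotube, while Top2a, Mcm5, Krt14 and Lss lie lower in every KO myotube.

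The promoters of 3 of these genes are shown, as the 250 bases before the RefSeq start on the gene's own strand (GRCm38.p6), because their transcripts went from at most a few reads to among the most increased. Capitals mark an E-box (CANNTG, its own reverse complement, the sequence class that Myod1 and Myog bind) in Myog at chr1:134289754-134290003 on the plus strand and in Tnnc2 at chr2:164779735-164779984 on the minus strand. In Actc1, at chr2:114052876-114053125 on the minus strand, they mark a CArG box, the sequence class of serum response factor.
Myog: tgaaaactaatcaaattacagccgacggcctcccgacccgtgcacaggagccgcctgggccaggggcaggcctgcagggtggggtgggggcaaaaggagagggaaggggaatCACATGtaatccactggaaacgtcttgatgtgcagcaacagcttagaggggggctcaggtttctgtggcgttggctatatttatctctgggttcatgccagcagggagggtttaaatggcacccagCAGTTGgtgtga
Tnnc2: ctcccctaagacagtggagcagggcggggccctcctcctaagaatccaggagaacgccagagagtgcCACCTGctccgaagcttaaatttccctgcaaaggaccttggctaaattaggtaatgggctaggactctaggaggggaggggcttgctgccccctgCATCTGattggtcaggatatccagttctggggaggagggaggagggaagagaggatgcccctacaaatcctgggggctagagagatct
Actc1: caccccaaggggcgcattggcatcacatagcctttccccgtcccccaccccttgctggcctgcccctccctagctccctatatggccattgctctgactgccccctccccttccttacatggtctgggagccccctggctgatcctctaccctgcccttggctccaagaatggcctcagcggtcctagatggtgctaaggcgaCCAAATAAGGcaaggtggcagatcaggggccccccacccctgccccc
An E-box is common: 66.2% of all 32851 promoters of this length held one, as did 56.0% of those of genes tested, 72.2% of those of genes that rose at least 4-fold and 52.2% of those of genes that fell at least 4-fold. The form CAGCTG was held by 13.0% of all promoters, 30.6% of those of genes that rose at least 4-fold, 10.7% of those of genes that fell at least 4-fold and 10 of 18 of the thin-filament list. A CArG box was held by 1.47% of all promoters. Of the genes tested, 8023 had a promoter in the RefSeq table. A match is a description of letters and not a binding site.

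Titin and the genes at the Z-disc, where thin filaments are anchored, changed unevenly. Ttn, the giant spring of the sarcomere, rose from 2.62, 2.49, 2.6 and 0 to 309.8, 487, 551 and 466 (change 7.42 ± 0.415, adjusted p = 3.7e-08). Synpo2l rose from 3.83 ± 1.49 to 559.9 ± 110.5 (SD, n = 4). In the list, 11 of 21 genes rose and 3 fell (median 0.89), or 52.4% and 14.3%, where 13.9% and 12.1% of all genes tested rose and fell. Pdlim7, an actin-associated LIM protein, was among those that fell, from 1408 ± 78.9 to 701 ± 128 (SD, n = 4).

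The calcium store of muscle rose as well. Of 27 genes of the sarcoplasmic reticulum and triad, 21 rose and none fell (median 2.11). Atp2a1, the fast calcium pump, was at 0.875, 0.830, 0.868 and 1.67 in KO myoblasts and at 591, 508, 462 and 389.7 in KO myotubes (change 7.89 ± 0.286, adjusted p = 4.4e-10). Casq2, a calsequestrin that binds calcium in the store, rose from 2.12 ± 0.802 to 210.0 ± 31.9 and Jsrp1, a junctional protein, from 2.99 ± 0.891 to 129 ± 16.9 (SD, n = 4). Ryr1, the calcium release channel, had a single read among the KO myoblasts and stood at 44.5, 29.2, 27.0 and 50.0 in KO myotubes, a ratio of 171 with a counting interval of 30.1 to 6799. No myotube sample overlapped the myoblasts for these 4 genes. In the list of neuromuscular and dystrophin-complex genes, 17 of 20 rose and none fell (median 2.51), or 17 of 26 without the filter (median 1.58). It was led by Dok7, an adaptor of synapse formation (change 6.31), and Chrng, the fetal acetylcholine receptor subunit, at 0.217 ± 0.434 in KO myoblasts and 62.3 ± 8.74 in KO myotubes (SD, n = 4).

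Genes of cell division fell together. Of 81 mitosis genes 80 fell, with a median change of −1.95. Kifc1, the exception, changed by −1.04 (adjusted p = 0.22), but 60.1% of the 31-base stretches at its 3′ end occur in other genes, so its count is uncertain. Of 67 DNA replication genes 53 fell and 1, E2f2, rose (median −1.59). Top2a, the topoisomerase that untangles replicated chromosomes, was at 1423, 2028, 1889 and 1424 in KO myoblasts and at 805, 553, 562 and 647 in KO myotubes (change −1.39 ± 0.187, adjusted p = 0.00014). Mcm5, a subunit of the replicative helicase, fell from 1135, 1084, 1278 and 1148 to 247, 153, 148 and 294 (change −2.52 ± 0.219, adjusted p = 3.1e-06). In both genes the stages were clearly separate. Gins1, another part of the helicase, changed by −3.95, Ndc80 of the kinetochore by −3.58 and Sgol2a, a protector of sister chromatids, by −3.78. E2f2, a factor of the family that drives S-phase genes, went the other way, from 32.4, 11.6, 33.8 and 21.7 to 66.8, 129.9, 86.4 and 148. Without KO myotubes 2 and 4, the shallow samples, 79 mitosis genes and 52 replication genes fell.

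Summed over the mitosis list, KO myotubes retained 4713 to 6512 normalized counts against 18206 to 26281 in KO myoblasts, so division transcripts were lower but not absent. Cdkn1a, which encodes the inhibitor p21, was at 912, 1083, 1013 and 1105 in KO myoblasts and at 2869.6, 3273, 3405 and 3529 in KO myotubes (change 1.67 ± 0.159, adjusted p = 7.3e-06), and Cdkn1c, which encodes p57, rose by 2.49. Of 28 CDK inhibitors, D cyclins and Rb relatives, 9 rose and 4 fell (median 0.13), and 2 fell without any one of KO myoblasts 1, 3 and 4 and KO myotube 4. The 9 and 4 are 32.1% and 14.3% of the list, where 13.9% and 12.1% of all genes tested rose and fell. The pocket protein gene Rbl1 was among those that fell (change −2.73, adjusted p = 0.027), a call that was lost without any of several single samples. Of 27 replication-dependent histone genes, 17 fell and 4 rose, or 63.0% and 14.8%, where 12.1% and 13.9% of all genes tested did. Summed over all genes of the histone list, tested or not, the stages overlapped. The sums were 1534 to 1784 in KO myoblasts and 1350 to 1780 in KO myotubes. Hist1h1b, a linker histone of dividing cells, fell from 25.5 ± 7.30 to 1.18 ± 1.43, while Hist1h1c, whose mRNA can also be polyadenylated, rose from 289 ± 49.2 to 674 ± 141 (SD, n = 4). Hist1h4n had no read in any KO myotube, but 87.5% of the 31-base stretches at its 3′ end occur in other genes, so its count is uncertain.

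The promoters of Top2a, at chr11:99024190-99024439 on the minus strand, and Mcm5, at chr8:75109259-75109508 on the plus strand (RefSeq, GRCm38.p6), are shown because these were abundant genes that were lower in every KO myotube than in any KO myoblast. Capitals mark CCAAT, the box bound by NF-Y, and TTTGAA, a core of the cell-cycle homology region, each on either strand.
Top2a: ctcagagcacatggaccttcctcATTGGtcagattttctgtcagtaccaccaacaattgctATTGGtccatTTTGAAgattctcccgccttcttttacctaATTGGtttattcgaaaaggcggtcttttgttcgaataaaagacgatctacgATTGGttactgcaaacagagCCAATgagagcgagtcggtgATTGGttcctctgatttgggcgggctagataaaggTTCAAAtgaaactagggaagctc
Mcm5: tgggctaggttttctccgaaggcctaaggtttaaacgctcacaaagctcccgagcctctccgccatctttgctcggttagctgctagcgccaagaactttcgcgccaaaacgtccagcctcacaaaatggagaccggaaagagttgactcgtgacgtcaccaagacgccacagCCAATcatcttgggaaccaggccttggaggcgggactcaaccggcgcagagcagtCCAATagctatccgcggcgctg
CCAAT was held by 33.8% of all promoters and by 67.1% of those of the mitosis list, and TTTGAA by 16% and 32.9%. The E2F-type word TTCCCGC was found in neither of the promoters shown. It was held by 3.82% of all promoters and 21.2% of those of the DNA replication list. Variants of this word were not searched, so its absence does not show that a promoter lacks E2F-type sequence.

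**Figure D3:**
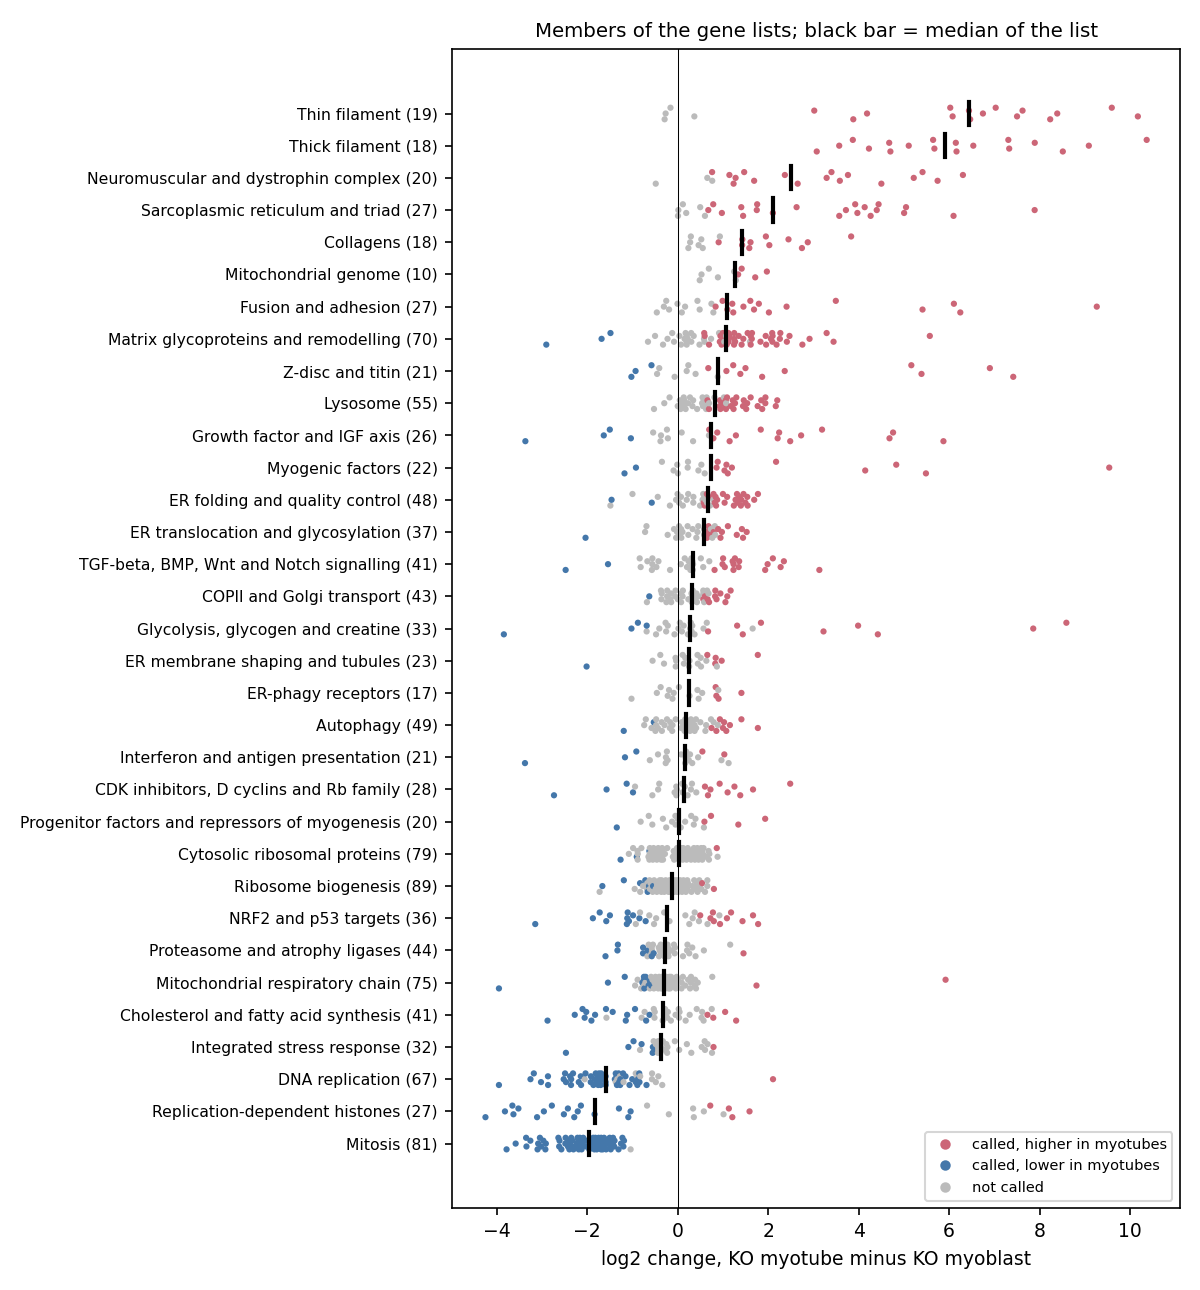
Log2 change in KO cells (x axis) of each tested member (points) of 33 gene lists (rows, with the number of members tested), coloured red where called higher, blue where called lower and grey otherwise, with the list's median as a black bar. The lists run from thin and thick filaments, with medians of 6.44 and 5.91, down to mitosis at −1.95. Between them lie, among others, the neuromuscular list at 2.51, collagens at 1.43, DNA replication at −1.59 and histones at −1.84. Many of the remaining medians lie nearer 0.

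The ER is where Fam134b acts, and its genes moved in part. Of 48 folding and quality-control genes, 25 rose and 2 fell (median 0.67), and 16 rose without KO myoblast 4. Calr, a calcium-binding chaperone of the ER lumen, was at 589, 898, 919 and 652 in KO myoblasts and at 4627, 2361, 2038 and 1964 in KO myotubes (change 1.78 ± 0.264, adjusted p = 0.0003). Hspa5, which encodes the chaperone BiP, was at 543, 423, 730.5 and 355 and then at 1861, 1272, 951 and 1283. The stages did not overlap for either. Serpinh1, the collagen chaperone, rose from 150.1 ± 19.3 to 480.5 ± 218 and Hyou1, a BiP cochaperone, from 6.40 ± 2.26 to 22.9 ± 7.46 (SD, n = 4). In ER translocation and glycosylation 13 of 37 genes rose and 1, Ost4, fell, while 7 rose without KO myoblast 4 and 8 without KO myotube 1. Mogs and Alg2, enzymes of N-glycan processing and synthesis, rose by 1.53 and 1.45. In transport from the ER to the Golgi 11 of 43 genes rose (25.6%, where 13.9% of all genes tested rose) and 1 fell. The rises were led by Mia3 (1.17) and Creb3l2 (1.10), which act in collagen export and its control. Without KO myoblast 4 the count of rises was 7, and with sample weights it was 18.

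The promoters of Hspa5, at chr2:34771840-34772089 on the plus strand, and Calr, at chr8:84846932-84847181 on the minus strand (RefSeq, GRCm38.p6), each held the ER stress response element, CCAAT and CCACG set 9 bases apart, here in capitals and in Calr as its reverse complement. The element overlaps the CCAAT box by construction.
Hspa5: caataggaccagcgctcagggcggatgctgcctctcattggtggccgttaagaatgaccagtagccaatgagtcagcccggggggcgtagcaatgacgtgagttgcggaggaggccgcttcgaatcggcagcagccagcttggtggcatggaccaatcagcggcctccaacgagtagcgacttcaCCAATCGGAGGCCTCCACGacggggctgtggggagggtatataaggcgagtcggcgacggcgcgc
Calr: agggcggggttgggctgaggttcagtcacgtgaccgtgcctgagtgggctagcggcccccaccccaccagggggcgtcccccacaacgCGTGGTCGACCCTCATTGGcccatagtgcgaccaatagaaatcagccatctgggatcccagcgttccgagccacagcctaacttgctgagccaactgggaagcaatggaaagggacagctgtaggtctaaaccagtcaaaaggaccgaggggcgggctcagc
It was held by 8 of 46 promoters of the folding list and by 37 of 32851 promoters in all.

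Genes that shape ER membranes changed little as a group, with 5 of 23 higher and 1 lower (21.7% and 4.3%). Rtn2, a reticulon of muscle, rose from 62.1 ± 9.80 to 217 ± 52.5 and Reep6, a membrane-curving protein, fell from 30.3 ± 6.60 to 6.73 ± 1.46 (SD, n = 4). Of 17 ER-phagy receptors and regulators, 4 rose and none fell, namely Calcoco1 (1.41), Tex264 (0.91), Nbr1 (0.86) and Rtn3 (0.84), the last pair named after their values were seen. That is 23.5% higher, where 13.9% of all genes rose. Calcoco1, a soluble ER-phagy receptor, was at 210.0, 242, 194 and 184 in KO myoblasts and 562, 676, 494 and 488 in KO myotubes. Tex264, a receptor in the ER membrane, was at 146, 140.3, 176 and 160.2 and then at 382, 304, 259 and 239.8. Both were higher in every KO myotube than in any KO myoblast, whereas Sqstm1, the autophagy receptor p62, overlapped between the stages (change −0.11 ± 0.190). Autophagy genes rose in 9 and fell in 2 of 49, or 18.4% and 4.1%, where 13.9% and 12.1% of all genes tested rose and fell. Bnip3, a receptor for mitochondria, rose from 186 ± 16.4 to 700.2 ± 315, and Atg4d, a protease of autophagy, fell from 105 ± 21.3 to 45.2 ± 7.5 (SD, n = 4). The count of Bnip3 may include reads of other genes, in which 25.7% of the 31-base stretches at its 3′ end occur.

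Lysosomal genes rose in 27 of 55 and fell in none (median 0.82). Ctsl, a cathepsin protease, was at 157, 203, 201 and 143 in KO myoblasts and at 1184, 715, 668 and 741 in KO myotubes (change 2.20 ± 0.209, adjusted p = 6.7e-06). Neu1, a sialidase, rose from 13.9 ± 3.23 to 69.2 ± 29.4 and Cd63, a membrane protein of late endosomes, from 736 ± 157 to 2853 ± 723 (SD, n = 4). Of the 31-base stretches at the 3′ end of Cd63, 42.8% occur in another gene, so its count is uncertain. Without KO myotubes 2 and 4 the lysosomal count was 22 higher and 1 lower. The rises numbered 18 without KO myoblast 1 or KO myotube 1, 20 without KO myoblast 4 and 19 with the replicate number as a block.

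**Figure D4:**
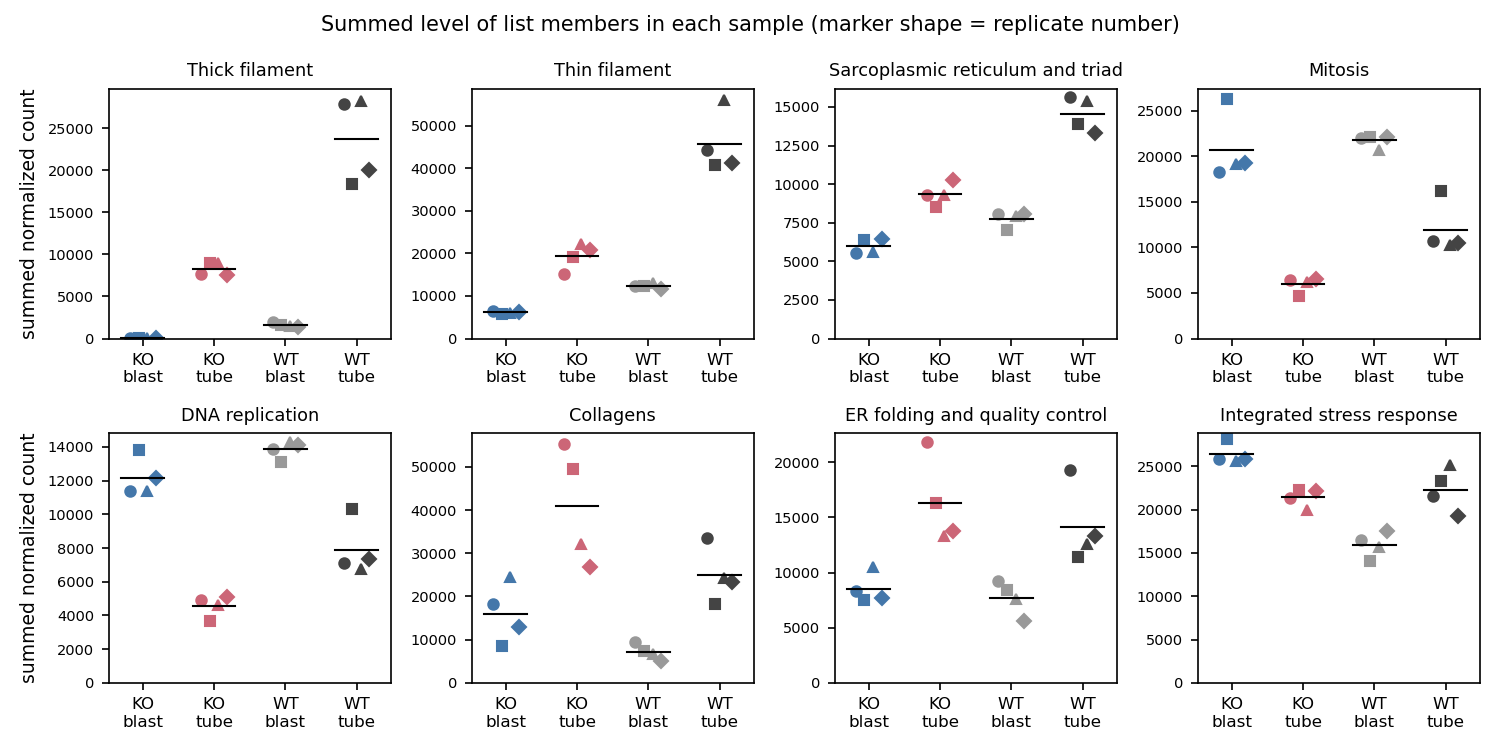
Normalized counts summed over the members of 8 gene lists (panels, y axis) in each sample of KO and WT myoblasts and myotubes (points, with the group mean as a line and 1 marker shape for each replicate number). KO myotubes lie above KO myoblasts in each of the sarcomere, sarcoplasmic reticulum, collagen and ER folding panels and below them in mitosis, DNA replication and the integrated stress response, and the thick-filament sum of KO myotubes (7533 to 9028) stays below that of WT myotubes (18406 to 28254).

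The integrated stress response, the programme by which Atf4 raises amino acid synthesis and transport genes, went the other way. Of 32 genes, 7 fell and 1, Nupr1, rose (median −0.38). These are 21.9% and 3.1% of the list, where 12.1% and 13.9% of all genes tested fell and rose. Asns, asparagine synthetase, was at 1404, 1189.6, 1398 and 1297 in KO myoblasts and at 596, 763, 767 and 581 in KO myotubes (change −0.97 ± 0.163, adjusted p = 0.00073). Cebpg, a partner of Atf4, fell from 201 ± 19.7 to 95.8 ± 26.2, and Phgdh, the first enzyme of serine synthesis, from 172 ± 126 to 28.8 ± 16.5 (SD, n = 4). These 3 did not overlap between the stages. For Phgdh, 55.1% of the 31-base stretches at its 3′ end occur in other genes, so its count is uncertain. Chac1 and Trib3 were also lower (change −0.55 in each, adjusted p = 0.038 and 0.029), but these calls were lost without most single samples, and that of Nupr1 without several. Without KO myotubes 2 and 4, 11 genes of the list fell and 3 rose, and 11 fell without KO myotube 4 alone. Only 4 fell without KO myoblast 3, KO myoblast 4, KO myotube 1 or KO myotube 3, as with the replicate number as a block, where none rose. Atf4 itself changed by −0.43 (adjusted p = 0.13) and Ddit3, the stress factor CHOP, by −0.25 (adjusted p = 0.25).

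The Asns promoter, at chr6:7693210-7693459 on the minus strand (RefSeq, GRCm38.p6), held one TGATGNAA, the core of the element that C/EBP and Atf4 dimers bind.
Asns: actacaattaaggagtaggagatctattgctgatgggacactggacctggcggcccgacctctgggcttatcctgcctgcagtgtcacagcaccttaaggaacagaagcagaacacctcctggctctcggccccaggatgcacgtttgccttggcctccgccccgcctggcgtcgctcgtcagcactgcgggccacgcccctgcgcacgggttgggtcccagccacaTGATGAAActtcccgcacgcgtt
The word was held by 7 of 31 promoters of this list and by 3.45% of all promoters.

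Extracellular matrix was the other large gain, and by absolute level among the largest. Fn1, fibronectin, stood at 2893, 1504, 4542 and 2478 in KO myoblasts and at 20961, 17833, 10008 and 10607 in KO myotubes (change 2.42 ± 0.333, adjusted p = 0.00017). Col3a1, a fibrillar collagen, stood at 1738, 696, 2429 and 1176 and then at 10904, 10614, 5644 and 4749.7. In both the myotubes lay above all myoblasts, and myotube samples 1 and 2 lay well above samples 3 and 4. Of 18 collagen genes 11 rose and none fell (median 1.43), and of 70 matrix glycoproteins and remodelling enzymes 42 rose and 3 fell (median 1.08). Dcn, the small proteoglycan decorin, rose from 2.36 ± 2.08 to 144 ± 44.1 and Thbs2, a thrombospondin, from 52.3 ± 18.7 to 579 ± 206 (SD, n = 4). Col1a1 rose from 7156 ± 3706 to 17938 ± 6292 (change 1.43, adjusted p = 0.015), a call that was lost without KO myotube 1. Ctgf, a matricellular protein, fell by 2.90 on the log2 scale.

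The same cells gained growth factor transcripts. Igf2, the insulin-like growth factor that myoblasts make as they differentiate, had a single read in KO myoblasts and stood at 76.5, 49.6, 84.6 and 63.9 in KO myotubes (ratio 337, counting interval 60 to 13375), although 65.5% of the 31-base stretches at its 3′ end occur in another gene. Igf1 was at 11.4, 13.3, 20.8 and 9.18 and then at 161, 104, 127 and 126. Igfbp5, a binding protein for both, rose from 25.2 ± 6.11 to 696 ± 249.6, and H19, the noncoding RNA beside Igf2, from 3419 ± 418 to 23253 ± 6985 (SD, n = 4), the largest gain in level of any gene. In the list 14 of 26 rose and 4 fell, among them Fgf7 (change −3.36). The rises and falls are 53.8% and 15.4% of the list, against 13.9% and 12.1% of all genes tested. In TGF-beta, BMP, Wnt and Notch signalling 16 of 41 genes rose and 2 fell. Tgfb2 rose from 115 ± 36.4 to 577 ± 127, and Lfng, a modifier of Notch, fell from 40.6 ± 19.3 to 6.05 ± 2.17 (SD, n = 4).

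Of 41 genes of cholesterol and fatty acid synthesis, 14 fell, 4 rose and 23 were not called (median −0.33). Lss, lanosterol synthase, was at 379.7, 310.5, 375 and 306 in KO myoblasts and at 71.6, 58.4, 51.3 and 20.0 in KO myotubes (change −2.87 ± 0.320, adjusted p = 2.9e-05). Pmvk, a kinase of the mevalonate pathway, fell from 459 ± 111 to 95.1 ± 29.4 (SD, n = 4). Scd2, a desaturase and the most abundant gene of the list, changed by 0.18 (adjusted p = 0.62).

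In energy metabolism several muscle isoforms rose, while most members of each list were not called. Ckm, muscle creatine kinase, was at 0.875, 0, 0.868 and 0 in KO myoblasts and at 350.5, 371, 314 and 248 in KO myotubes (ratio 768, counting interval 212 to 6352). Mb, myoglobin, rose by a ratio of 896 (counting interval 306 to 4351), and Cox8b, a muscle subunit of cytochrome oxidase, at least 23.1-fold. Of 33 genes of glycolysis, glycogen and creatine, however, 9 rose and 4 fell, and of 75 nuclear respiratory-chain genes 2 rose and 12 fell. Gapdh fell from 406 ± 211 to 29.2 ± 21.3 (SD, n = 4), but 45.0% of the 31-base stretches at its 3′ end occur in 324 other genes, so its count is uncertain. Of 10 genes of the mitochondrial genome 4 rose (median 1.27), but 2 without KO myoblast 4 or KO myotube 1 and 6 without KO myoblast 3, and the median was 0.78 without KO myoblast 2. ND5 stood at 714, 283, 1308 and 542 and then at 2974, 2831, 1818 and 1097, although 24.9% of the 31-base stretches at its 3′ end occur in other genes. CYTB, the most abundant, changed by 1.29 (adjusted p = 0.051). Cytosolic ribosomal protein genes stayed largely uncalled, with 1 of 79 higher and 3 lower, and proteasome genes and atrophy ligases fell in 8 and rose in 1, the ligase Fbxo32, of 44. Those 8 are 18.2% of their list, again where 12.1% of all genes tested fell.

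The largest losses in level were in abundant genes of the cytoskeleton and of growing cells. Actb, the cytoplasmic β-actin, was at 43547, 24758, 40548 and 38917 in KO myoblasts and at 9988, 18066, 15028 and 24134 in KO myotubes (change −1.17 ± 0.313, adjusted p = 0.014), a call that was lost without KO myoblast 1. Vim, the intermediate filament vimentin, fell from 19479 ± 4026 to 9683 ± 2062 (SD, n = 4). Lgals1, galectin-1, was lower in every KO myotube than in any KO myoblast (change −0.86, adjusted p = 0.036), but this call was lost without most single samples. Counts of Actb and of Ftl1, the ferritin light chain (change −2.45), may include reads of related genes, with which they share 24.2% and 83.0% of the 31-base stretches at their 3′ ends. Steep falls from low levels were seen in Mrps28 of the mitochondrial ribosome, at 44.6, 12.5, 20.8 and 37.5 in KO myoblasts and 0.968, 0, 2.70 and 0 in KO myotubes, and in Fabp5, a fatty-acid-binding protein (change −3.87). Among 36 targets of NRF2 and p53, 10 rose and 12 fell, Eda2r (1.78) and Gtse1 (−3.15) among them, and among 21 genes of interferon response and antigen presentation 2 rose and 3 fell, the chemokine Ccl2 by the most (−3.37). Those 2 and 3 are 9.5% and 14.3% of the interferon list, where 13.9% and 12.1% of all genes tested rose and fell. Ribosome biogenesis changed in few of its 89 genes, with 2 higher and 7 lower. Such small counts moved with single samples, as the falls in ribosome biogenesis did to 2 without KO myoblast 1 and 14 without KO myotube 4, those in the respiratory chain to 20 without KO myotube 4, those in proteasome genes to 5 without KO myoblast 1, KO myoblast 4 or KO myotube 1, and the rises in NRF2 and p53 targets to 6 without KO myoblast 1.

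The labelled cell type was checked against lists of defining markers. All 10 skeletal-muscle markers rose, and their sum went from 186 to 289 in KO myoblasts to 7607 to 9898 in KO myotubes. In WT cells the sum was 1706 to 2896 in myoblasts and 15544 to 23163 in myotubes. Fibroblast markers summed to 7.51 to 25.2 in KO myoblasts and 40.0 to 61.3 in KO myotubes, with 1 of 10 markers tested and higher (Cd34) and with Tcf21 at 0, beside the gain in matrix genes, and their part in that gain was not tested. Of the adipocyte list Adipoq, Plin1, Cidec, Lep and Cfd were at 0, Lpl, a lipase that muscle also makes, rose by 1.59, Pparg fell by 2.27 on the log2 scale, and the sum was 67.2 to 118 and then 166 to 400. Ptprc, Adgre1 and Itgam of the macrophage list were at 0, and its sums overlapped (13.9 to 29.2 and 12 to 35.8). Smooth-muscle markers, which C2C12 shares in Acta2, had sums of 10831 to 16511 and 7449 to 14501, which overlap and are mostly Acta2, but of 9 tested 1 rose and 4 fell (Cnn1 by 2.49, Tagln by 1.49, Actg2 by 1.67 and Kcnmb1 by 3.01 on the log2 scale). The chondrocyte and osteoblast sums overlapped as well (658 to 1103 and 381 to 885), but 1 of 2 members tested was called lower. Those of neuron and glia also overlapped (393 to 615 and 562 to 925, mostly the glutamate transporter Slc1a3, with Rbfox3, Syt1 and Sox10 at 0). Of 3 members tested 1 was called higher, and Slc1a3 had means of 448 in KO myoblasts and 680 in KO myotubes. Endothelial sums overlapped too (21.7 to 30.6 and 16 to 23.3). The epithelial sum was 1046 to 1173 in KO myoblasts and 85.2 to 156 in KO myotubes. It was nearly all Krt14, a basal keratin, at 1072, 1173, 1093 and 1045 in KO myoblasts and 77.5, 156, 102 and 87.9 in KO myotubes, with Epcam, Krt5, Cldn4, Esrp1 and Grhl2 at 0.

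Whether a change differed between KO and WT cells was tested with the interaction term in all 16 samples. It was called for 371 of the 10117 genes (3.67%), with the KO change the higher in 212 (2.10%) and the lower in 159 (1.57%). Of the 371, 313 were called in KO cells, and 174 of these were not called in WT cells. The others of the 313 were called in each genotype, 125 with matching signs of change and 14 with opposite signs. A further 52 were called in WT cells only and 6 in neither genotype. Of 188 genes that rose in KO cells with a positive term, 168 had a lower mean in KO than in WT myoblasts. The term contains the KO minus WT myoblast difference with a minus sign, so the selection itself favours this. The share among all genes tested was not computed, and nothing is concluded from the count. Myog had a fitted term of 6.32 (adjusted p = 1.3e-11), whose size depends on the pseudocount, since KO myoblasts had no read. Its mean was 0 in KO myoblasts and 114 in WT myoblasts, but 766 in KO and 1069 in WT myotubes. Mylpf, with a term of 5.64, stood at 5.51 in KO and 1010.3 in WT myoblasts and at 3507 in KO and 11169.6 in WT myotubes. The labels do not give the confluence at which each genotype was harvested, so a difference in stage of harvest and one of genotype cannot be told apart. A positive term was called in 13 of 19 thin-filament and 8 of 18 thick-filament genes. The negative member of the thin filament was Tpm2, which rose in WT cells by 1.12 and not in KO cells (term −1.28, adjusted p = 0.0046).

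**Figure D5:**
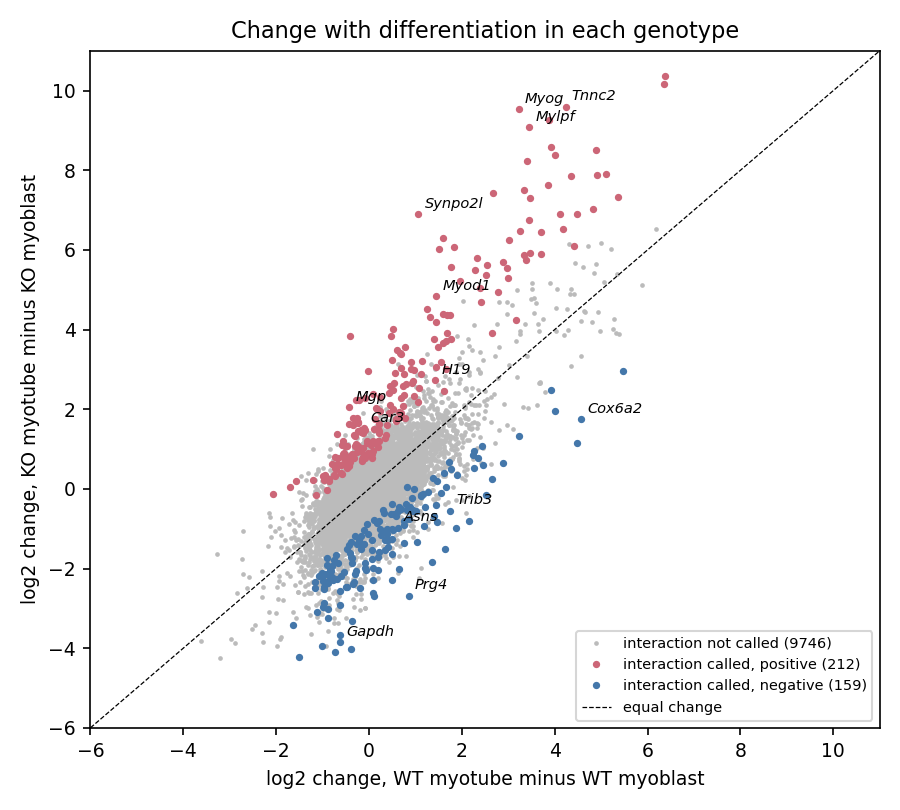
Log2 change on differentiation in KO cells (y axis) against that in WT cells (x axis) for the 10117 genes tested, with genes called for the interaction in red (positive, 212) and blue (negative, 159) and equal change as a dashed line. Myog, at 9.54 in KO and 3.23 in WT cells, lies far above that line, and Asns, at −0.97 and 0.62, lies below it.

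Other differences did not concern the sarcomere. In the integrated stress response 8 of 32 genes had a negative term and none a positive one. Asns rose from 465 to 721 in WT cells while it fell from 1322 to 677 in KO cells (term −1.59, adjusted p = 7.1e-05), and Trib3 rose from 132 to 449 while KO cells started at 798 and ended at 547 (term −2.29, adjusted p = 1.4e-06). Both genes stood higher in KO than in WT myoblasts. In the mitosis list 22 of 81 genes had a negative term, as had Mcm5 in DNA replication (−1.54, adjusted p = 0.0032), which ended at 211 in KO and 578 in WT myotubes. Col8a1, a short-chain collagen, rose in both genotypes and more in KO cells (2.88 against 1.13, adjusted p = 0.0086 for the difference), and Col6a2 rose in both and less in KO cells (1.95 against 4.01, adjusted p = 0.002). Mgp, the matrix Gla protein, and Car3, a carbonic anhydrase, rose in KO cells (2.05 and 1.52) and changed by −0.42 and −0.11 in WT cells, and the terms, 2.47 (adjusted p = 5.5e-07) and 1.63 (adjusted p = 0.00039), were called. Mgp was at 682, 969, 816 and 820.1 in KO myoblasts and at 3519, 3695, 3035 and 3331 in KO myotubes. Among ER lists the terms were few, with 2 negative of 48 in folding, 1 negative of 23 in membrane shaping (Reep6, −2.67, adjusted p = 0.00051) and none of 17 ER-phagy genes.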

How the data were processed

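Total RNA of C2C12 myoblasts and myotubes was sequenced as single-end reads with a commercial digital mRNA-seq service. The authors trimmed reads with bbduk, removed ribosomal RNA and phiX reads, aligned with STAR 2.6.0a to mm10 per the labels, and counted with HTSeq. The deposited values are log2 of a normalized count plus 1. Undone, 100% of values above 0 are whole multiples (within 1e-06) of a step per sample, the worth of 1 read, from which reads, floors of 3 reads and bounds were taken. Intervals and floors cover counting error only.

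The 8 KO samples were fitted with limma 3.58.1 in R 4.3.3 (lmFit, eBayes with trend, no covariates), and the interaction in all 16 samples, on the same genes. The design had assumed normalized counts, and with log2 values no further log step was taken. The script was tested on simulated data. Named genes were, among called genes that did not overlap between stages, the 12 largest changes each way, the 8 largest gains and losses in level and, where the interaction was called too, its 6 largest terms each way. The 3 genes with the largest change and the most abundant per list, and the Fam134 family, were named whether or not they were called or overlapped. Krt14, Slc1a3, Car3, Mgp, Myf5, Ryr1, Mef2c, Hspa5, Ddit3, Trib3, Chac1, Rtn3, Nbr1, E2f2, Kifc1, Ctgf, Igf1, Fgf7, Nupr1, Col6a2, Lpl, Tpm1, Tpm3 and Lmod1, and the markers of other cell types, were named after their values were seen. The genes compared, the lists and the tests were chosen with earlier results of these data known, so list counts describe and support nothing further. Alternatives were other pseudocounts, filters, scalings and thresholds, a replicate block, all 16 samples, sample weights, voom and each sample left out. Promoters are from RefSeq (GRCm38.p6) and gene positions from GENCODE M21. Counting strand is not given in the sources used here, so overlapping antisense genes cannot be told apart.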

Additional observations from a re-analysis of the deposited data

Results flagged for a closer look

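In 14 groups of 4 KO samples 1 sample lay far from the other 3, past Dixon's 95% critical value, of 324 groups of genes and list sums examined. Chance gives about 5 in 100, and the share here was 4.32%. In KO myotube 1, Cd81 stood at 2782, Calr at 4627 and Ctsl at 1184. In KO myotube 2 Nupr1 stood at 967, in KO myotube 3 Cebpg at 135 and in KO myotube 4 Trib3 at 669. In KO myoblast 2 Casq2 stood at 3.32 and Jsrp1 at 1.66, a few reads each, and the sums of the progenitor list, 4059, of the integrated stress response, 28136, and of mitosis genes, 26281, were the highest of the group. In KO myoblast 3 Alg2 stood at 94.6 and Hist1h1c at 363, and in KO myoblast 4 Ctgf at 10.0.

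Of 144 genes examined singly, 56 changed differently in KO and WT cells by the interaction test (limma, adjusted p under 0.05). Over all 10117 genes tested it was called for 371 (3.67%). Many of the 144 were picked for a large change or a large interaction term, or after their values were seen. Their share is therefore set by the selection, and nothing is concluded from it. The term, the log2 change in KO cells minus that in WT cells, depends on the pseudocount where KO myoblasts had few or no reads. It was positive for sarcomere and calcium-store genes, at 5.84 in Synpo2l, 5.64 in Mylpf, 5.36 in Tnnc2, 4.84 in Tnni1, 4.75 in Ttn, 4.38 in Acta1, 3.99 in Myh3, 3.81 in Actc1, 3.62 in Mybph, 2.98 in Atp2a1, 2.79 in Myom2, 2.66 in Jsrp1 and 1.69 in Casq2. It was positive as well for the regulators and fusion genes Myog (6.32), Tmem8c (5.39), Myod1 (3.39), Gm7325 (3.24), Smyd1 (3.21) and Tcf4 (1.07), for the synaptic genes Dok7 (4.71) and Chrng (2.36), and for the metabolic genes Mb (4.66), Ckm (3.50) and Cox8b (2.45). Among growth factor, matrix and other genes it was 2.54 in Igf2, 2.47 in Mgp, 2.27 in Igfbp5, 1.75 in Col8a1, 1.65 in Igf1, 1.65 in E2f2, 1.63 in Car3, 1.31 in H19, 1.29 in Cd63, 1.25 in Hist1h1c and 1.24 in Fbxo32. It was negative for Mrps28 (−3.64), Prg4 (−3.53), Sprr1a (−3.36), Gapdh (−3.21), G430095P16Rik (−3.19), Ptx3 (−3.15), Gins1 (−2.93), Cox6a2 (−2.82), Gm37800 (−2.72), Reep6 (−2.67) and Trib3 (−2.29). Smaller negative terms were found in Col6a2 (−2.06), Lfng (−1.99), Lss (−1.91), Krt14 (−1.78), Asns (−1.59), Pmvk (−1.58), Mcm5 (−1.54), Chac1 (−1.5), Herpud1 (−1.38) and Tpm2 (−1.28).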

How the results depend on the processing

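No gene called under both the reported and another setting changed direction, and the 2627 calls stayed within 1.5 times under other pseudocounts, filters and scalings, all 16 samples, voom and sample weights. An adjusted p under 0.01 left 1383 genes (808 higher, 575 lower), an absolute change of at least 1 left 1619 (898 and 721), and sample weights gave 1870 lower. Leaving out single samples gave 1728 to 2837 calls (1005 to 1468 higher, 723 to 1369 lower), with 1728 without KO myoblast 4 and 1737 without KO myoblast 1 (723 and 731 lower). The interaction was called for 142 genes at an adjusted p under 0.01 (97 and 45) and for 1236 with sample weights (634 and 602). Leaving out single samples gave 230 to 505 (148 to 297 positive, 82 to 228 negative), with 230 without KO myoblast 1, 240 without KO myoblast 4 and 245 without WT myoblast 2. Negative terms numbered 87 without KO myoblast 3, 90 to 93 without WT myoblast 2, 3 or 4, and 94 and 101 without WT myotube 3 or 4. The median change of the histone list was 0.34 with a minimum count of 50. Leaving out single samples put the median of NRF2 and p53 targets between −0.32 and 0.00377 and the change of Sqstm1 between −0.23 and 0.044. The cause was not tested. Lists with more members higher than lower numbered 22 of 33, and 22 to 24 elsewhere. The Fam134b change, not called under any alternative, ran from 0.38 to 0.71.

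With the replicate number as a block 2016 genes were called (1105 higher, 911 lower) and 354 for the interaction. Same-numbered KO samples did not deviate together (correlations of −0.223 to 0.119 over 4 pairs), so the numbers were not taken as a pairing. Depth limits low genes most in KO myotubes 2 and 4, where 3 reads are worth 4.38 and 5.99 normalized counts. Without them 2891 genes were called.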
